A study of Mus musculus with 7 samples.

Results

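The sites described here are places in the genome of mouse embryonic fibroblasts that the glucocorticoid receptor (NR3C1) occupied in all 4 libraries of dexamethasone-treated cells, and that only some of the libraries of vehicle-treated cells also showed. They were chosen by the presence of peak summits in the 7 deposited lists. Summits at most 200 bp apart were linked into sites, and a site on chromosomes 1 to 19 was kept when all 4 dexamethasone lists and 1 or 2 of the 3 vehicle lists held it. This gave 3958 sites of 35316 in the series and of 8842 that all 4 dexamethasone lists held on these chromosomes. The other sites of the 8842 serve for comparison: 2164 were held by all 3 vehicle lists as well, and 2720 by none.

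The libraries come from chromatin immunoprecipitation with sequencing (ChIP-seq), using an in-house antibody against the receptor. The groups were Klf15-/- cells with dexamethasone (2 libraries), wild-type cells with dexamethasone (2), Klf15-/- cells with ethanol vehicle (2) and wild-type cells with vehicle (1, from pooled material because little was available). Treatment lasted 1 h in every group. KLF15, a Krüppel-like factor, is a DNA-binding transcription regulator with zinc fingers. The fibroblasts came from several stages of gestation and passages, and were grown in medium with fetal bovine serum; the labels do not say whether steroids had been removed from it, nor whether replicate libraries were grown separately. Summit lists cannot check the genotype labels.

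Without hormone, most glucocorticoid receptor is held in the cytoplasm with chaperone proteins. An agonist such as dexamethasone releases it into the nucleus, where it binds regulatory DNA directly, through a palindromic response element, or alongside other factors in chromatin that is already accessible.

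Each list gives a position of 1 bp and a score per summit, a value of the authors whose scale is unknown. The Klf15-/- dexamethasone lists held 19999 and 20169 summits, the wild-type dexamethasone lists 15628 and 16927, the Klf15-/- vehicle lists 7325 and 8088, and the wild-type vehicle list 10034. Read depth is unknown from these files. A missing summit is therefore a call that was not made at an unknown depth, and does not show that the receptor was absent. Coordinates are mm9, counted from 1. No mm9 genome or gene annotation was used, so sites carry no gene names and no sequence is shown. In several measures below, Klf15-/- vehicle library 1 (called the first) lay away from the other vehicle libraries, so some results that rest on it are also given without it. Others, such as the shares by decile and the values of sites held by both Klf15-/- vehicle lists, are given only with it.

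Of the 8842 sites, 44.8% (95% interval 43.7 to 45.8%) had 1 or 2 vehicle lists, 24.5% (23.6 to 25.4%) had all 3 and 30.8% (29.8 to 31.7%) had none. These are exact binomial intervals and cover counting error only. Of the 3958 partly occupied sites, 2090 had 1 vehicle list and 1868 had 2 (47.2%, 45.6 to 48.8%). These counts follow from the rule and are not tested.

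The vehicle libraries contributed unequally. The first Klf15-/- vehicle list held 610 of the 3958 sites (15.4%), the second held 2067 (52.2%) and the wild-type vehicle list held 3149 (79.6%). The 2 largest groups were sites with the wild-type vehicle list alone (1456) and sites with the second Klf15-/- list together with the wild-type list (1388). The second Klf15-/- list alone marked 504 sites. The remaining groups were the first Klf15-/- list with the wild-type list (305), both Klf15-/- lists (175) and the first Klf15-/- list alone (130). By genotype, 809 sites had vehicle summits of Klf15-/- cells only, 1693 of both genotypes and 1456 of wild-type cells only.

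The share of partly held sites depends on which vehicle lists are compared. Without the first Klf15-/- vehicle list, 2440 of the same 8842 sites (27.6%) were held by 1 of the other 2 vehicle lists, 3552 by both and 2850 by none, so that partly held sites were the smallest class. Without the second, the counts were 3149 (35.6%), 2469 and 3224. Without the wild-type list they were 2327 (26.3%), 2339 and 4176.

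**Figure D1:**
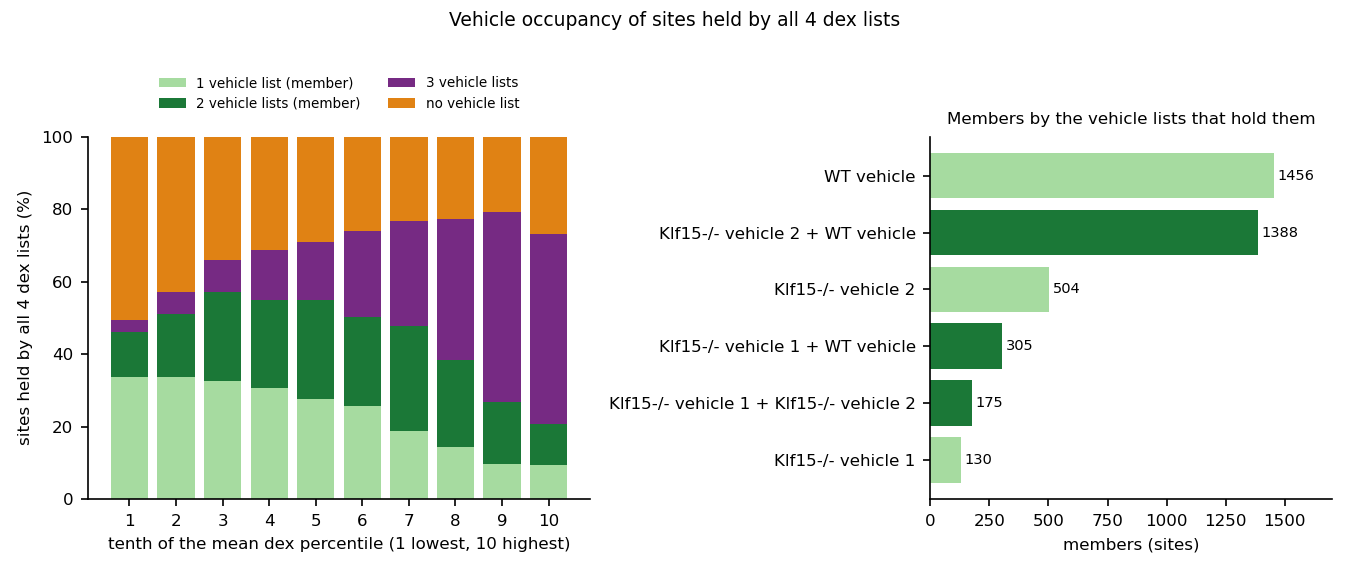
Left: share of the sites held by all 4 dexamethasone lists (vertical axis, %) that had 1, 2, 3 or no vehicle lists, by decile of the mean dexamethasone percentile (horizontal axis). Right: number of partly occupied sites for each combination of vehicle lists, from 1456 for the wild-type list alone to 130 for the first Klf15-/- list alone.

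A vehicle summit in one list went with a vehicle summit in another. Among the 8842 sites, the wild-type vehicle list held 84.0% of those held by the second Klf15-/- vehicle list and 38.2% (36.8 to 39.6%) of those it did not hold. The second Klf15-/- vehicle list held 84.3% (82.9 to 85.7%) of the sites of the first and 31.2% (30.0 to 32.4%) of the rest. In the other direction, the first Klf15-/- vehicle list held 55.3% of the sites of the second and 9.43% of the rest. The partly occupied sites are by definition those on which these lists disagreed.

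The number of vehicle lists varied with how high a site ranked after dexamethasone. Rank is given as the score percentile within a list, from 0 to 100, averaged over the 4 dexamethasone lists. Partly occupied sites made up 46.0% of the lowest decile, reached 57.2% (53.9 to 60.5%) in the third decile and fell to 20.8% (18.2 to 23.6%) in the highest. Sites with a single vehicle list made up 33.8% of the lowest decile and 9.49% of the highest, while sites with 2 vehicle lists were most common in the seventh decile, at 29.0%. Sites with all 3 vehicle lists made up 3.50% of the lowest decile and 52.4% of the highest. Sites with no vehicle list made up 50.5% of the lowest decile, 20.8% of the ninth and 26.8% of the highest.

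After dexamethasone the partly occupied sites had middling scores. Their median percentile was 68.1 and 69.4 in the Klf15-/- dexamethasone lists and 63.5 and 66.0 in the wild-type ones. The corresponding medians of sites with no vehicle list were 66.3, 66.5, 60.8 and 62.9, and those of sites with all 3 vehicle lists 88.2, 88.1, 83.6 and 85.1. A presence rule selects on score in every list, so these medians are descriptions. Partly occupied sites lay slightly above sites with no vehicle list in the median, but below them at the top of the ranking. Above percentile 90 stood 12.4% and 12.8% of the partly occupied sites in the Klf15-/- dexamethasone lists and 10.0% and 10.3% in the wild-type ones, against 16.8%, 17.0%, 13.5% and 15.3% of the sites with no vehicle list.

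In the vehicle lists that held them, the partly occupied sites stood low to middle. The median percentile was 36.9 in the first Klf15-/- vehicle list (610 sites), 47.7 in the second (2067) and 55.3 in the wild-type list (3149). Sites held by all 3 vehicle lists had medians of 58.7, 80.1 and 83.5 in the same lists. Sites marked by 1 vehicle list had lower vehicle percentiles (31.3, 38.6 and 47.9) than sites marked by 2 (37.8, 50.4 and 62.9).

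**Figure D2:**
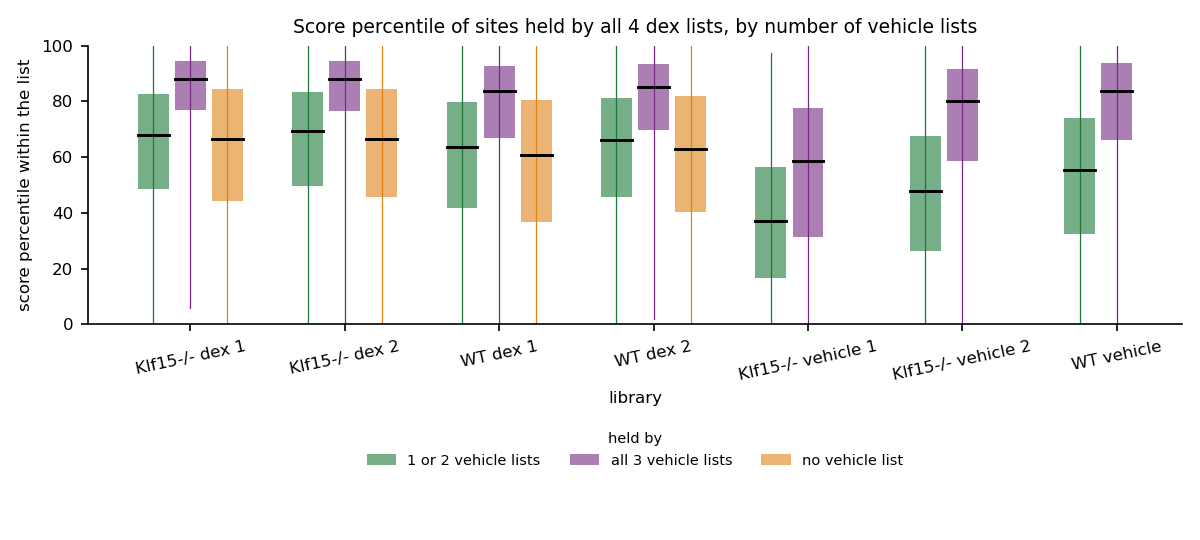
Score percentile within each list (vertical axis) for sites held by 1 or 2, all 3 or no vehicle lists, per library (horizontal axis). Black lines are medians, boxes span the quartiles and thin lines the full range; the partly occupied sites have medians from 63.5 to 69.4 in the dexamethasone lists and from 36.9 to 55.3 in the vehicle lists.

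A high rank after dexamethasone carried over only in part to the vehicle lists. Across the partly occupied sites, the Spearman correlation of percentiles between replicates was 0.730 in Klf15-/- and 0.697 in wild-type dexamethasone lists, and 0.460 to 0.477 between genotypes. The second Klf15-/- vehicle list gave 0.189 and 0.192 with the Klf15-/- dexamethasone lists and 0.124 and 0.130 with the wild-type ones (2067 sites). The wild-type vehicle list gave 0.150 and 0.141 with the Klf15-/- dexamethasone lists and 0.293 and 0.323 with the wild-type ones (3149 sites). For the first Klf15-/- vehicle list all 4 values lay between -0.009 and 0.036 (610 sites). These are correlations across sites, which are not replicates, and low scores are noisy within every list. In both other vehicle lists, the correlation was larger with the dexamethasone lists of the same genotype.

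Some of the strongest dexamethasone sites of the series had only a weak vehicle summit, but this was not the rule at the top. At the 152 partly occupied sites with a mean dexamethasone percentile above 95, the median vehicle percentile was 57.7 in the wild-type list (119 sites). It was 53.6 in the second Klf15-/- vehicle list (92 sites) and 24.35 in the first (23 sites). The highest-ranked partly occupied site lay on chromosome 17, from 3218605 to 3218643. It stood at percentiles 99.93 and 99.95 in Klf15-/- and 99.95 and 99.94 in wild-type dexamethasone lists, against a single vehicle summit, of wild-type cells, at 35.57. Its dexamethasone summits were at 3218628 and 3218631 in Klf15-/- and at 3218643 and 3218632 in wild type, and the vehicle summit was at 3218605. The nearest summits of the first and second Klf15-/- vehicle lists were 118 and 11.4 kb away.

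The second site, on chromosome 10 from 41613586 to 41613719, stood at 99.90 and 99.91 in Klf15-/- and 99.94 and 99.94 in wild-type dexamethasone lists, against 25.20 in the wild-type vehicle list. The first Klf15-/- vehicle list had a summit 0.371 kb from it, beyond the linking distance of 200 bp. The third, on chromosome 8 from 96695431 to 96695495, stood at 99.94, 99.87, 99.96 and 99.93 in the 4 dexamethasone lists, against 25.53 in the wild-type vehicle list. All 3 were therefore among the top summits after treatment in both genotypes and in the lower part of the one vehicle list that showed them.

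The highest-ranked sites seen only in Klf15-/- vehicle cells had the same form. A site on chromosome 2, from 152631969 to 152631999, stood at 99.76 and 99.71 in Klf15-/- and 99.67 and 99.71 in wild-type dexamethasone lists, against 4.93 in the second Klf15-/- vehicle list. A site on chromosome 15, from 51562432 to 51562496, stood at 99.69, 99.47, 99.86 and 99.88 after dexamethasone, against 14.29 in that same vehicle list. The top sites of the first Klf15-/- vehicle list alone were on chromosome 14, from 77351443 to 77351533, with a vehicle percentile of 3.17, and on chromosome 19, from 38630018 to 38630071, with 4.31. Every one of these 4 was below percentile 15 in the vehicle list that held it. Such summits lie near the lower end of what was called in the vehicle lists.

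Some of the named sites with 2 vehicle lists had unequal vehicle percentiles. The site on chromosome 10 from 14052377 to 14052579 stood at 99.83, 99.84, 99.70 and 99.64 after dexamethasone. Its vehicle percentiles were 25.04 in the first Klf15-/- list and 52.88 in the wild-type list. The site on chromosome 4 from 5057988 to 5058173 had 2.64 in the second Klf15-/- vehicle list and 70.79 in the wild-type one, and the site on chromosome 4 from 11899765 to 11899873 had 3.17 in the first Klf15-/- list and 77.77 in the wild-type one. The site on chromosome 7 from 86481716 to 86481767 was more even, with 63.77 in the second Klf15-/- vehicle list and 77.29 in the wild-type one. For both Klf15-/- vehicle lists together, the top sites were on chromosome 10 (76096808 to 76096973), with vehicle percentiles of 18 and 31.07, and on chromosome 9 (96546780 to 96546946), with 14.03 and 47.34.

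At a pair of sites among the 10 highest-ranked, the vehicle percentiles were as high as those after dexamethasone. They lay 4.01 kb apart on chromosome 2, from 98506910 to 98506949 and from 98502820 to 98502896. The first stood at 99.87, 99.90, 99.86 and 99.78 in the dexamethasone lists, and at 99.82 in both the second Klf15-/- and the wild-type vehicle list. The second stood at 99.80, 99.79, 99.68 and 99.61 after dexamethasone, with 99.78 and 99.81 in the same vehicle lists. The first Klf15-/- vehicle list had summits 0.456 and 0.350 kb from them, and sites held by all 7 lists lay 1.65 and 1.14 kb away. Signal at this place in a control library was not tested, since none was used here. Whether the receptor accounts for the signal at this pair was therefore not tested.

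At the edges of the rule stood sites with a summit near the bottom of one list. On chromosome 15, a site from 96872518 to 96872700 had a percentile of 0.03 in the second Klf15-/- vehicle list, and a site from 55968198 to 55968392 had 0.04 in the wild-type one. The lowest dexamethasone percentiles were 0.01, in the second Klf15-/- list at chromosome 5 from 74538198 to 74538419, and 0.03, in the first wild-type list at chromosome 3 from 39007260 to 39007361. Just outside the rule, 1605 sites had 1 or 2 vehicle lists and 3 of the 4 dexamethasone lists. Their median mean percentile after dexamethasone was 43.4, against 62.9 for the partly occupied sites. At the other edge, 169 of the 2164 sites held by all 3 vehicle lists were below percentile 10 in one of them, and 237 of the 3958 partly occupied sites were below percentile 10 in every vehicle list that held them.

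A missing vehicle summit was rarely a near miss in position. Of the 3348 partly occupied sites without a summit of the first Klf15-/- vehicle list, 91 (2.72%) had one within 1000 bp, and the median distance to its nearest summit was 74.7 kb. For the second Klf15-/- vehicle list the figures were 65 of 1891 (3.44%) and 40.4 kb, and for the wild-type list 47 of 809 (5.81%) and 29.2 kb. Counting a vehicle summit within 1000 bp as presence gave 4008 partly occupied sites in place of 3958.

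In the median, sites shown by the vehicle cells of only 1 genotype ranked higher after dexamethasone in that genotype, but single sites often did not. The wild-type side of this grouping rests on 1 vehicle library. For this comparison, each dexamethasone score was ranked among the 8842 sites alone, as a percentile, a scale that is the same for lists of unequal length. Which sites the lists held still depends on their length. Such ranks are relative, and a rise at some sites lowers others. At the 809 sites with vehicle summits of Klf15-/- cells only, the median rank was 49.6 and 48.8 in the Klf15-/- dexamethasone lists and 30.9 and 29.7 in the wild-type ones. At the 1456 sites with a wild-type vehicle summit only, it was 31.2 and 33.1 in the Klf15-/- lists and 44.1 and 44.5 in the wild-type ones. At the 1693 sites with vehicle summits of both genotypes the medians were closer, at 48.4 and 48.6 in Klf15-/- and 51.9 and 51.1 in wild type. In each of these groups the medians of replicates lay closer together than those of the genotypes.

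Per site, the Klf15-/- minus wild-type difference of the mean rank had a median of 12.6 points (quartiles -0.65 and 29.5) where only Klf15-/- vehicle cells showed the site. The median was -1.55 points (quartiles -14.0 and 11.0) where both genotypes did, and -7.94 points (-22.4 and 4.61) where only wild-type vehicle cells did. The wild-type-only value was -5.27 points with lists of equal length and -3.16 points with percentiles of the whole lists, against 11.9 and 15.7 points where only Klf15-/- vehicle cells showed the site. Over all 8842 sites it was -0.05 points, at sites with no vehicle list 0.21 and at sites with all 3 vehicle lists 0.38. The largest median belonged to the 175 sites held by both Klf15-/- vehicle lists and not by the wild-type one, at 24.6 points (5.33 and 40.4). It was 11.0 points for the second Klf15-/- vehicle list alone and 6.18 for the first alone. The absolute difference between replicates of a genotype at one site had a median of 11.3 points in Klf15-/- and 11.8 in wild type over all 3958 sites, so single sites vary by about as much as the shift between groups.

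**Figure D3:**
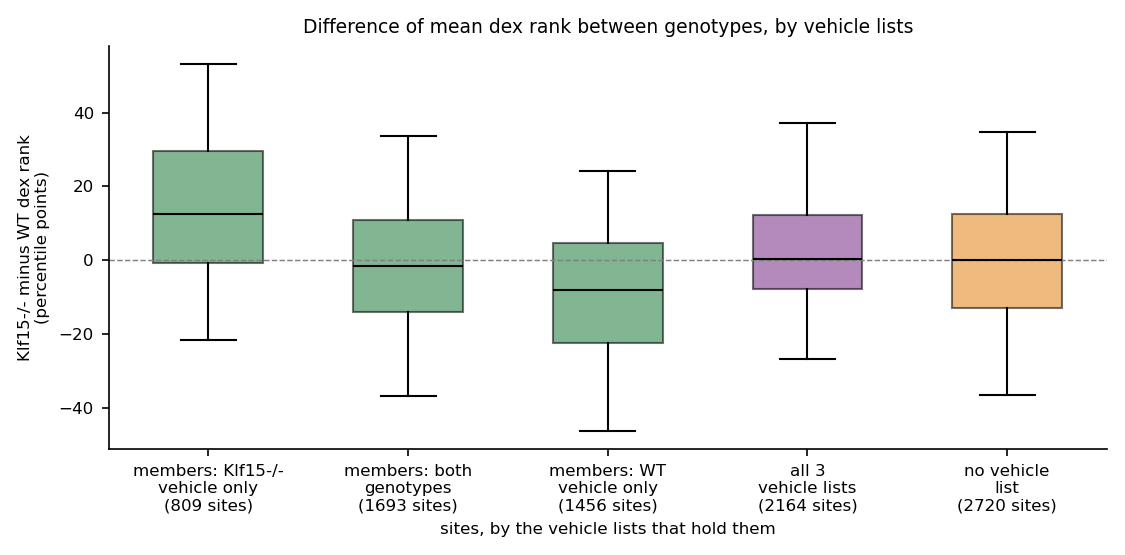
Klf15-/- minus wild-type difference of the mean dexamethasone rank, in percentile points (vertical axis), by the vehicle lists that held the site (horizontal axis). Boxes span the quartiles with the median as a line and whiskers reach the 5th and 95th percentiles; the medians are 12.6, -1.55 and -7.94 for the partly occupied groups, 0.38 with all 3 vehicle lists and 0.21 with none.

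The same order held when only sites without overlap between the genotypes were counted. Both Klf15-/- dexamethasone ranks were above both wild-type ranks at 25.9% of all 8842 sites and at 941 of the 3958 partly occupied ones (23.8%). They were so at 395 of the 809 sites seen only in Klf15-/- vehicle cells (48.8%, 45.3 to 52.3%), at 363 of the 1693 seen in both genotypes (21.4%) and at 183 of the 1456 seen only in wild-type vehicle cells (12.6%, 10.9 to 14.4%). Both wild-type ranks were above both Klf15-/- ranks at 27.3% of all sites, at 87 of the 809 (10.8%, 8.70 to 13.1%), at 451 of the 1693 (26.6%) and at 554 of the 1456 (38.0%, 35.5 to 40.6%). Among the 175 sites of both Klf15-/- vehicle lists the Klf15-/- ranks were above at 111 (63.4%) and the wild-type ranks at 14 (8%).

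With 2 libraries a genotype, an exact permutation test over libraries cannot pass 0.05, and no p-value is given. Without the first Klf15-/- vehicle library, the medians were 14.6 points for sites seen only in the remaining Klf15-/- vehicle library and -6.88 for those seen only in the wild-type one. Leaving out the second instead gave 15.7 and -4.99.

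Over the quintiles of the mean dexamethasone percentile, low to high, the median difference was 5.89, 15.9, 23.2, 17.2 and 2.94 points at sites seen only in Klf15-/- vehicle cells (80 to 214 sites each). At sites seen only in wild-type vehicle cells it was -6.30, -11.3, -9.93, -9.47 and -0.41 points (104 to 402 sites each). The quintiles are made from the same 4 lists, and a mean near either end of the scale leaves little room for a difference, so no trend with rank is read from these values.

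The 3 sites with the widest gap in each direction, chosen after their values were seen, show the range. On chromosome 2, from 162108477 to 162108599, the list percentiles were 91.27 and 92.26 in Klf15-/- and 6.35 and 5.86 in wild-type dexamethasone lists, with 46.72 in the first Klf15-/- vehicle list. The wild-type vehicle list had no summit within 1175 kb of it. On chromosome 13, from 72336323 to 72336598, they were 86.9 and 95.51 in Klf15-/- and 24.48 and 13.66 in wild type, with 78.38 in the second Klf15-/- vehicle list. On chromosome 12, from 68695898 to 68696030, they were 95.28 and 90.66 in Klf15-/- and 24.48 and 33.32 in wild type, with 10.86 in the second Klf15-/- vehicle list. In the opposite direction, a site on chromosome 10 from 21240891 to 21240953 stood at 6.82 and 0.51 in Klf15-/- and at 93.58 and 90.93 in wild-type dexamethasone lists, with 93.00 in the wild-type vehicle list. A site on chromosome 17 from 7179577 to 7179691 stood at 31.04 and 4.75 in Klf15-/- and at 90.71 and 97.60 in wild type, with 87.00 in the wild-type vehicle list. A site on chromosome 16 from 72268110 to 72268472 stood at 21.92 and 13.41 in Klf15-/- and at 93.67 and 93.89 in wild type, with 68.52 in the wild-type vehicle list. Vehicle percentiles thus ran from 10.86 to 78.38 at the Klf15-/- sites and from 68.52 to 93.00 at the wild-type sites.

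The observed balance between the genotypes varied over the chromosomes. Counts per chromosome are small and no test was made. Sites seen only in Klf15-/- vehicle cells were 0.556 times as many as those seen only in wild-type vehicle cells. The ratio ran from 0.324 on chromosome 15 (35 against 108 sites) to 0.848 on chromosome 14 (39 against 46). Over all 8842 sites, the median Klf15-/- minus wild-type rank difference was -5.70 points on chromosome 15, -4.13 on chromosome 8, -3.45 on chromosome 19 and -2.76 on chromosome 10, and lay between -0.98 and 1.98 on the other autosomes. With the median of its chromosome taken off each site, the medians were 12.8 points at sites seen only in Klf15-/- vehicle cells and -7.60 at those seen only in wild-type vehicle cells. Without chromosomes 1, 7, 8, 9, 10, 14, 15, 17 and 19, a set chosen with the data known, they were 12.6 and -7.34.

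The partly occupied sites were spread over all autosomes, from 146 on chromosome 14 to 288 on chromosome 10. They made up 37.4% (33.0 to 41.9%) of the sites held by all 4 dexamethasone lists on chromosome 5 and 51.8% (45.8 to 57.7%) on chromosome 19, with the other autosomes between. Most stood alone: 3410 had no other partly occupied site within 10 kb, and the other 548 formed 265 runs, 16 of them with 3 or more sites. The longest runs held 4 sites, on chromosome 4 from 89086346 to 89094861 and on chromosome 1 from 180972228 to 180990473. In the run on chromosome 4, 3 sites had vehicle summits of both genotypes and 1 of wild type only. In the run on chromosome 1, 2 had vehicle summits of Klf15-/- cells only, 1 of both genotypes and 1 of wild type only.

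Fully occupied sites had other fully occupied sites nearby more often than partly occupied ones did. A site held by all 7 lists lay within 10 kb of 8.41% (7.57 to 9.32%) of the partly occupied sites, of 14.9% (13.4 to 16.5%) of the other sites held by all 7 lists and of 6.69% (5.78 to 7.70%) of the sites with no vehicle list. The median distance to it was 185 kb, 128 kb and 247 kb in these classes. A partly occupied site lay within 10 kb of 13.8% of the other partly occupied sites, of 15.9% of the sites held by all 7 lists and of 14.0% of those with no vehicle list. Without the first Klf15-/- vehicle library, sites held by all remaining lists were more numerous, and 12.7% of the partly occupied sites had one within 10 kb. No matching share was taken for the sites held by all remaining lists, so the comparison of classes is not given without that library.

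Summit positions within a site are not used by the rule beyond the linking distance, and were compared between treatments. For each library, the distance from its summit to the median summit of the other dexamethasone lists was taken at every partly occupied site it held. The median distance was 34 and 34 bp in the Klf15-/- dexamethasone libraries and 35 and 34 bp in the wild-type ones. It was 69.8 and 45 bp in the Klf15-/- vehicle libraries and 38 bp in the wild-type vehicle library. All 3 vehicle libraries lay above all 4 dexamethasone libraries, with means of 34.2 ± 0.5 bp (SD, n = 4) with dexamethasone and 50.9 ± 16.7 bp (SD, n = 3) with vehicle. The two-sided exact permutation test of the 35 assignments of libraries gave p = 0.0571, the smallest p it can give. The reference is made of dexamethasone summits only, so this order cannot tell a shifted vehicle position from wider scatter of vehicle summits. Between pairs of dexamethasone lists the median distance was 39 to 42 bp. It was 44 to 72 bp between a dexamethasone and a vehicle list, and 79, 64 and 48 bp between pairs of vehicle lists. Sites held by all 7 lists gave the same order, with vehicle medians of 63, 35.5 and 32.5 bp. Their means were 27.0 bp with dexamethasone and 43.7 bp with vehicle. The difference there was -16.7 bp (two-sided exact permutation test, p = 0.0571), and -7.0 bp without the first Klf15-/- vehicle library. The wider vehicle distance is therefore not particular to the partly occupied sites.

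The first Klf15-/- vehicle library accounted for much of the size of the difference between the dexamethasone and vehicle means. The dexamethasone minus vehicle difference was -16.7 bp with it and -7.25 bp without it at the same partly occupied sites (two-sided exact permutation test, p = 0.133, the smallest possible with 4 against 2 libraries). In that library, 63.3% of the summits were more than 50 bp from the dexamethasone position, against 44.7% in the second Klf15-/- vehicle library and 38.7% in the wild-type one. It also had more than 1 summit at 51 of its 610 sites, against at most 21 sites in any other library.

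Summits were placed less exactly at low scores in every library, and vehicle summits had low scores more often. In the lowest part of their own list, up to percentile 33.3, the medians were 49 and 46 bp in the Klf15-/- dexamethasone lists and 47 and 44 bp in the wild-type ones, against 73, 56.5 and 50.5 bp in the Klf15-/- and wild-type vehicle lists. Above percentile 66.7 they were 29, 29, 28 and 28 bp with dexamethasone, against 58.5, 37.5 and 31 bp with vehicle. The order of the treatments was the same in these 3 score ranges, except that in the middle range the wild-type vehicle list, at 38.5 bp, lay within the dexamethasone lists (38, 41, 40 and 38 bp).

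**Figure D4:**
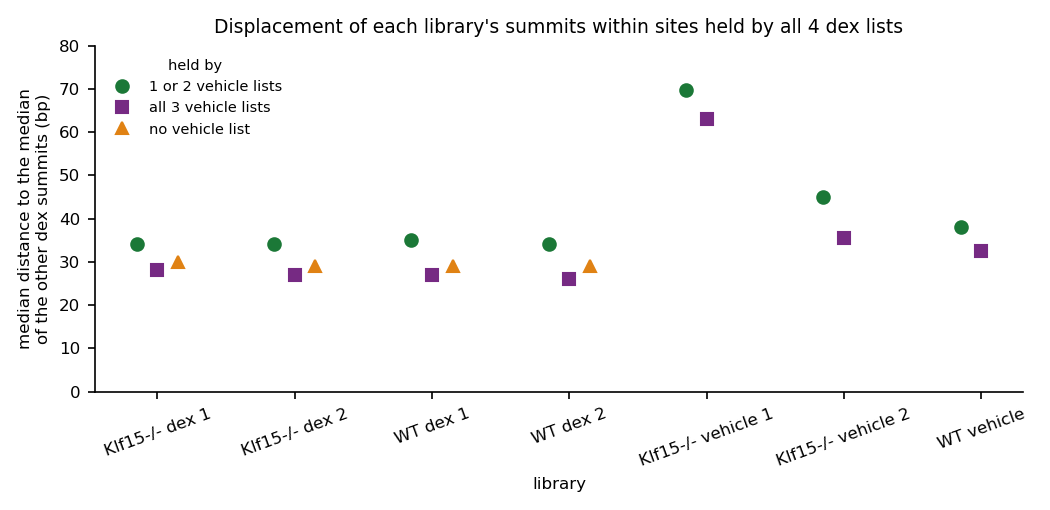
Median distance in bp (vertical axis) from each library's summit to the median of the other dexamethasone summits, per library (horizontal axis) and by the number of vehicle lists that held the site. The partly occupied sites lie at 34 or 35 bp in the dexamethasone libraries and at 69.8, 45 and 38 bp in the vehicle libraries.

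The dexamethasone summits themselves were spread differently over the classes of sites. The same distance was 27 or 28 bp in Klf15-/- and 26 or 27 bp in wild-type dexamethasone lists at sites held by all 7 lists, and 29 to 30 bp at sites with no vehicle list. The 4 dexamethasone summits of a partly occupied site spanned 85 bp in the median (quartiles 56 and 121), against 70 bp at sites held by all 7 lists and 75 bp at those with no vehicle list. Spans over 100 bp occurred at 37.7% (36.2 to 39.2%) of the partly occupied sites, 27.6% (25.8 to 29.6%) of those held by all 7 lists and 32.7% (30.9 to 34.5%) of those with no vehicle list. Among the partly occupied sites, those of both Klf15-/- vehicle lists had spans over 100 bp most often (50.3%), and those of the first Klf15-/- list with the wild-type list least often (30.5%).

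Since summits are placed more exactly at high scores, the span was also compared at like rank. In the lowest quintile of the mean dexamethasone percentile the median was 108 bp both at partly occupied sites and at sites with no vehicle list. At the 87 sites held by all 7 lists in that quintile the median was 120 bp. In the highest quintile it was 54 bp at 421 partly occupied sites and 59 bp at 927 sites held by all 7 lists, against 41 bp at 421 sites with no vehicle list. Spans over 100 bp made up 13.3% (10.2 to 16.9%) and 17.8% (15.4 to 20.4%) of the first 2 classes in that quintile, against 4.04% (2.37 to 6.39%) of the sites with no vehicle list. In the fourth quintile the shares were 26.4% and 28.7%, against 12.7%. They were 32.7% and 31.8%, against 28.3%, in the third quintile and 46.0% and 47.5%, against 37.3%, in the second. From the second quintile to the highest, the partly occupied sites were therefore closer to the fully occupied ones in this measure. In these quintiles the sites without any vehicle summit had the most tightly placed dexamethasone summits, with the smallest gap in the third. Sites are not replicates and no test was made. A wider site also offers more room for a vehicle summit to be linked to it, and the part of this in the difference was not tested.

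**Figure D5:**
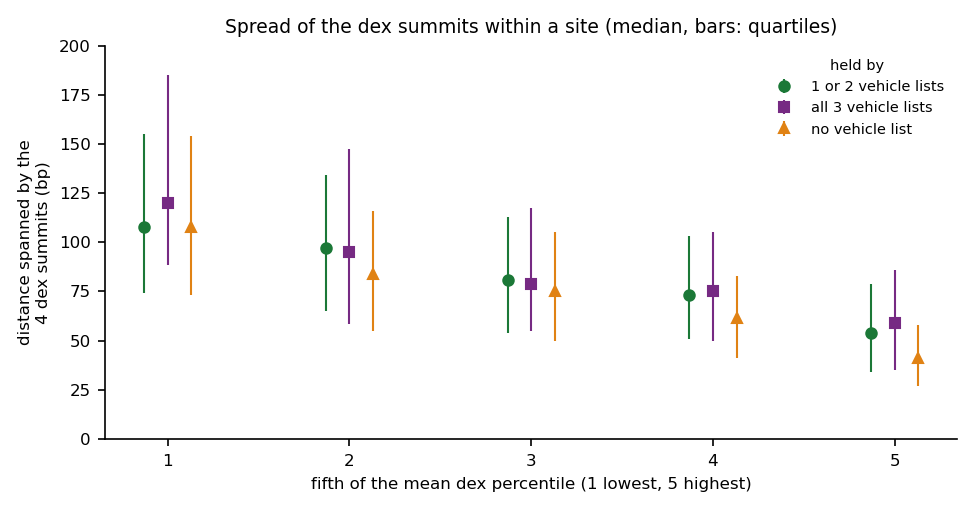
Distance spanned by the 4 dexamethasone summits of a site in bp (vertical axis), by quintile of the mean dexamethasone percentile (horizontal axis) and by the number of vehicle lists. Points are medians and bars the quartiles; in the highest quintile the medians are 54 bp for partly occupied sites, 59 bp with all 3 vehicle lists and 41 bp with none.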

How the data were processed

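Receptor ChIP-seq summits of 7 mouse embryonic fibroblast libraries were grouped by sample title. Per the submitters' processing notes, the authors used CASAVA 1.4, Bowtie2 and SAMtools with the mm9 build. The sources used here do not name the peak caller, control or threshold. The deposited score of each summit is the authors' value on an unstated scale, and was used only as a percentile within its list. Summits were linked by single linkage (gap 200 bp). The members and measures were chosen with earlier results of these data known. The 10 highest-ranked members, the 2 highest of each combination of vehicle lists and the 2 lowest at each edge are named, leaving out chromosome 18. The only test was a two-sided exact permutation test over libraries. Its p-values set the observed difference of means against those of all assignments of libraries to treatments. Differences between libraries may be technical. The supplied gene and promoter tables are of another build (GRCm38), so the planned motif, gene position and target gene analyses are not analysed here. Linkage and ranking were tested on simulated lists. Tools were scipy 1.17.1, pandas 2.3.3, numpy 2.4.6 and matplotlib 3.10.9 under Python 3.11.15.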

Additional observations from a re-analysis of the deposited data

How the results depend on the processing

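Of 117 values of 9 results under alternatives, 86 counted as the same, 31 as moved and 0 as reversed. Summit offset differences counted as the same whenever their sign held, so -9.00 and -23.4 bp did so against -16.7 bp. Site numbers had a wide margin, and 3142 and 4518 counted as the same as 3958. The other results counted as the same within the counting interval of the main value or an SD between lists. Ranks alone cannot tell a site without receptor from one below the score at which a list ends. Keeping the upper-scoring part of every list, beyond its median, left 1914 sites, of which 51.1% had 2 vehicle lists, with a median dexamethasone percentile of 82.0 and 4.13% within 10 kb of a site of all 7 lists. The wild-type-only rank difference was then -6.27, and 2.19% of the highest quintile without a vehicle list spanned over 100 bp. Lists of equal length left 1201 sites, with 58.5%, 82.9, 6.83%, -5.27 and 0.905% for the same measures, and 6.90% for spans of partly occupied sites. Equal length within a treatment gave 48.9% with 2 vehicle lists and a median of 67.0. Percentiles of the whole list gave rank differences of 15.7 (Klf15-/- only) and -3.16 (wild-type only), and -5.42 for the second with the median of all sites taken off. The cause of these shifts was not tested.

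Leaving out one library at a time gave 2323 (without the wild-type vehicle library) to 4518 sites, 45.1 to 45.6% with 2 vehicle lists, median percentiles of 60.04 to 65.2 and 8.28 to 12.7% near a site of all 7 lists. Rank differences were 11.8 to 15.7 (Klf15-/- only) and -8.32 to -4.99 (wild-type only). The share with 2 vehicle lists has no value without a vehicle library. The summit offset difference was -22.8 to -9.00 bp, with -9.00 bp without the first Klf15-/- vehicle library, with the sites chosen anew. In a paired comparison with the replicate block, over same-numbered Klf15-/- libraries, it was -23.4 bp, and the block left the rank differences at 12.6 and -7.94, as it must; the labels do not say that numbers pair the libraries. The planned motif, gene position and target gene alternatives were not run, since no mm9 reference was used.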

Other observations

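On chromosome X, 50 of 1187 sites met the same list rule, and none did on chromosome Y (0 of 197 sites) or in the mitochondrial genome (0 of 16). They are not part of the values above.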
